A study of Mus musculus with 6 samples.

Results

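Fatty acid synthesis in mouse liver was examined after an overdose of acetaminophen (APAP) through 10 genes listed by symbol. They are the transcription factors Srebf1 and Mlxipl, the enzymes Acly, Me1, Acaca, Fasn, Elovl6 and Scd1, and the lipogenic genes Thrsp and Pnpla3. Each was taken as the entry of that name in the table of 34745 genes, and all 10 were among the 13734 genes that passed the filter on low counts. The libraries were bulk RNA-Seq of WT mouse liver after APAP (300 mg/kg, 12 hours) or saline. The Methods name male C57BL/6J mice that were fasted before an intraperitoneal injection. The 2 APAP libraries analysed are replicates 1 and 3, and APAP replicate 2 was not analysed here. The 3 control libraries are named WT1, WT2 and WT3. Since the remaining libraries carry the name of APAP, these were taken for the saline livers, and every comparison rests on that assignment. The Methods describe repeats of experiments in general as biological, but the labels tie no library to an animal, and p-values measure the spread between these libraries.

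The liver makes fatty acids from carbohydrate. Citrate leaves the mitochondria and is cleaved to acetyl-CoA, which is carboxylated to malonyl-CoA, assembled into palmitate with NADPH as the reductant, and then elongated and desaturated. The program is known to be driven by insulin through SREBP1 and by glucose through ChREBP, and to be low during fasting.

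Of the 10 genes, 6 were lower in APAP livers at an adjusted p under 0.05 (edgeR quasi-likelihood test, Benjamini-Hochberg adjustment over all genes tested), and 0 were higher. The 6 were Mlxipl, Me1, Acaca, Fasn, Scd1 and Thrsp, with APAP means between 4.97% and 44.1% of the saline means. Srebf1, Acly, Elovl6 and Pnpla3 did not pass. Over all genes tested, 7.23% passed in either direction and 3.53% passed as lower with APAP. With the threshold named in the study (at least 1.5-fold and P under 0.05), taken here without adjustment, Srebf1 and Elovl6 were added and 8 of the 10 genes were lower, against 23.5% of all genes in either direction and 11.2% lower. In 7 of the 10 genes both APAP libraries lay below all 3 saline libraries, which was so for 20.1% of all genes tested. The median log2 fold change was -1.46 over the 10 genes and 0.03 over all genes tested. In bulk liver RNA, fewer cells that express these genes and less of their RNA per cell cannot be told apart.

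**Figure D1:**
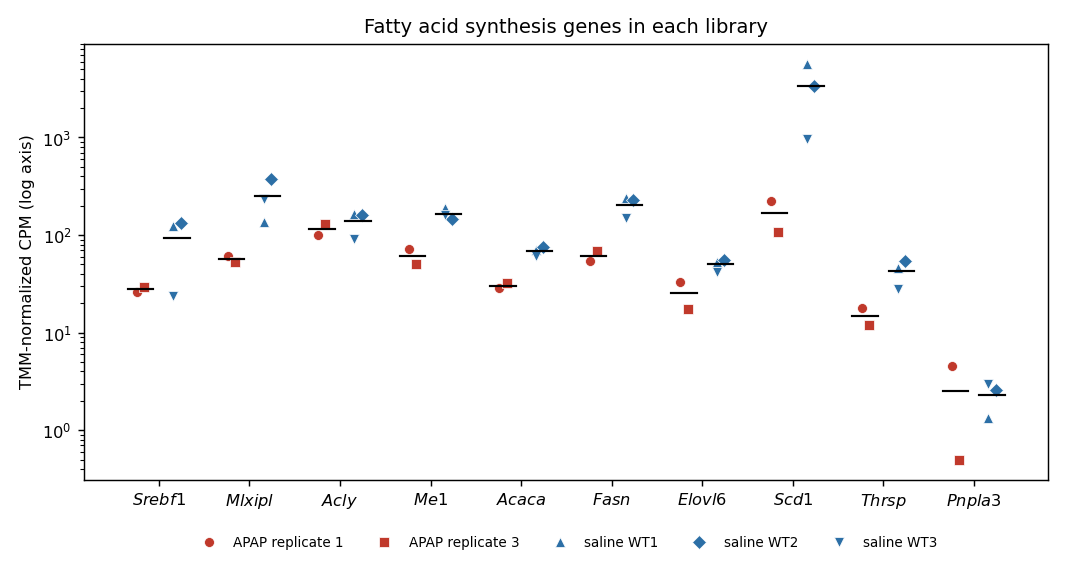
Level of each of the 10 genes in each library, in CPM on a log axis, with APAP libraries in red, saline libraries in blue and group means as black bars. Scd1 shows the widest gap between the group means, and the saline library WT3 (downward triangles) lies below both APAP points for Srebf1 and Acly.

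The calls changed when single libraries were left out. Without APAP replicate 1, without APAP replicate 3 or without WT2, 0 of the 10 genes passed, and the adjusted p of the 6 genes lay between 0.0974 and 0.186, between 0.0754 and 0.202 and between 0.0910 and 0.150 in these fits. Without WT1 only Mlxipl passed (adjusted p = 0.0260). Without WT3, 6 genes passed, with Srebf1 in and Mlxipl out (adjusted p of 0.00964 and 0.0584). All 6 genes stayed below 0 on the log2 scale in each of these fits, between -4.95 and -1.09. The number of genes called over the whole table fell as well, from 993 to as few as 165 without WT2.

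**Figure D2:**
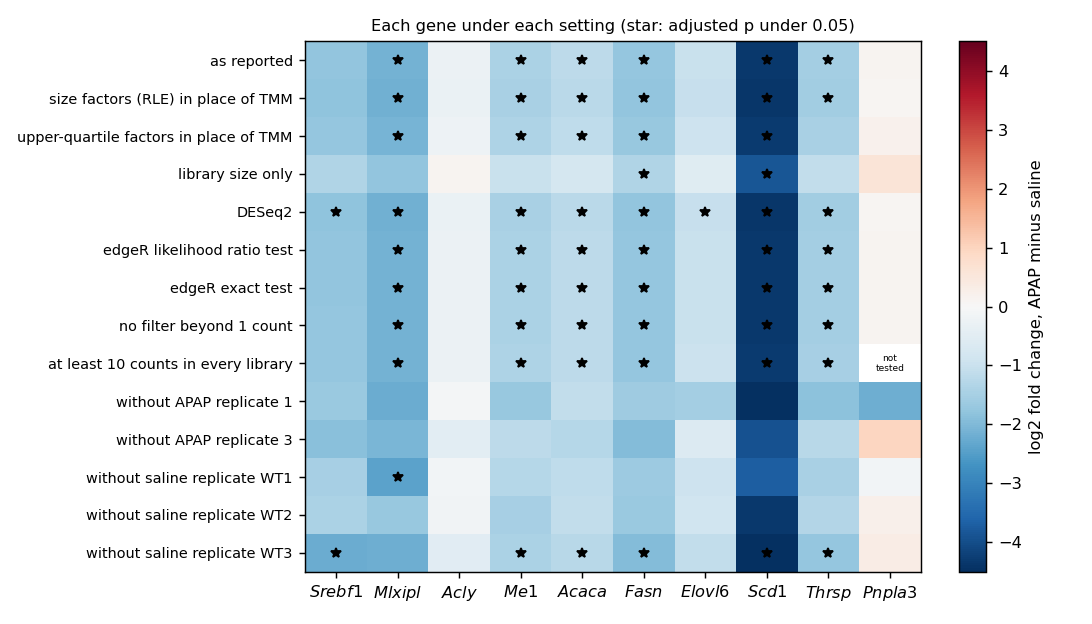
Fitted log2 fold change (color) of each gene as reported, under each other normalization, test or filter, and with each library left out, with a star where the adjusted p was under 0.05. Every column other than those of Acly and Pnpla3 is blue throughout, and the stars thin out with library size only and wherever a library other than WT3 is left out.

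The libraries held between 13378445 and 15976339 counts, and levels are given as CPM, the count scaled to the library size after TMM normalization for library composition. A count of 3, used as the floor, was worth 0.176 to 0.269 CPM. The smallest count of any of the 10 genes in any library was 8. All 5 sex-linked genes read (Xist and 4 Y-linked genes) separated the 2 APAP from the 3 saline libraries. The libraries taken for saline carried the female pattern, with Xist at 289.6, 914 and 882 CPM and at most 1 read of Ddx3y, while the APAP libraries carried the male pattern, with Xist at 0.764 and 1.73 CPM and Ddx3y at 78.97 and 61.7 CPM. The saline libraries thus go against the male mice named in the Methods. Of 16 genes with female-biased expression in mouse liver, 13 were lower with APAP. Of the 12 male-biased genes tested, 0 passed in edgeR's quasi-likelihood test (7 higher and 1 lower at the unadjusted threshold of the study), with 8 above and 4 below 0 on the log2 scale. The 14 male-biased genes listed summed to 409 CPM in APAP replicate 1, 13976 CPM in APAP replicate 3 and 761 to 1028 CPM in saline livers. Most of the sum in APAP replicate 3 was Serpina1e. It held 11519 CPM there, 192 CPM in APAP replicate 1 and 595 to 663 CPM in saline livers. Treatment and sex-linked expression therefore coincide in these libraries and cannot be told apart for any gene described here. Markers of centrilobular hepatocytes, the zone that APAP is known to injure, were lower with APAP in 9 of 10 genes, with a sum between 8067 and 12517 CPM in saline and of 1061 and 1953 CPM in APAP livers. The sum of 10 general hepatocyte markers was 85803 and 138114 CPM in APAP livers and between 138707 and 196162 CPM in saline livers. Of these markers, 1 was lower at an adjusted p under 0.05, against 3.53% of all genes tested. At the unadjusted threshold of the study 4 were lower, against 11.2% of all genes tested. Their median log2 fold change was -0.69, with 8 below and 2 above 0. Neutrophil markers were higher with APAP in 8 of the 9 tested, with a sum of 129 and 81.2 CPM against 4.84 to 8.89 CPM in saline livers. Of the markers tested, 3 of 12 periportal ones were lower, while 2 of 5 cholangiocyte, 1 of 12 macrophage, 1 of 9 stellate and 0 of 8 endothelial ones were higher. The part of these shifts in the results on fatty acid synthesis was not tested.

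Srebf1 encodes SREBP1, the transcription factor that carries the insulin signal to lipogenic genes, and lies on chromosome 11 (60199089 to 60222581, minus strand, GRCm38). It measured 25.8 and 29.5 CPM in the APAP livers and 125, 133 and 23.5 CPM in WT1, WT2 and WT3. The groups overlapped, since WT3 lay below both APAP libraries while WT1 and WT2 lay far above them. The log2 fold change was -1.76 (SE 0.68, 95% interval -3.38 to -0.14) with an unadjusted p of 0.0373 and an adjusted p of 0.171 in edgeR's quasi-likelihood test. Without WT3 it was -2.22, with an adjusted p of 0.00964. Gene counts do not separate the isoforms that start at different first exons of Srebf1. Srebf1 also shares 109 exon bases with Rai1 on the opposite strand, and the strand setting of the counting is not given in the sources used here.

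Mlxipl encodes ChREBP, the transcription factor that responds to glucose metabolites and switches on glycolytic and lipogenic genes (chromosome 5, 135089890 to 135138382, plus strand). Its level was 60.6 and 52.9 CPM after APAP and 137, 377 and 237 CPM after saline. The APAP libraries were close to each other and below all saline libraries, which themselves spread 2.76-fold. Mlxipl was lower with APAP by a log2 fold change of -2.14 (SE 0.45, 95% interval -3.20 to -1.08, adjusted p = 0.0385).

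Of the 9 genes with a RefSeq promoter, only Mlxipl had a window with an exact match to either of 2 motifs searched for these factors. Other forms of the sites of these factors were not searched for, so the other genes may hold them. The windows span 250 bases before to 50 bases after each RefSeq start (GRCm38.p6), 13 windows in all, and no window was matched for Scd1. The only window of Acaca lies inside the gene, so the region before its outer start was not searched. Both strands were searched for the core of the sterol regulatory element (TCACNCCA), bound by SREBPs, and for the E-box CACGTG, the core of the sites of ChREBP and of USF. The 250 bases before the 2 Mlxipl starts are printed here because one holds the first motif and the other holds the second, marked by capitals with any CCAAT box.
Mlxipl, inner start, chr5:135106641-135106890, plus strand: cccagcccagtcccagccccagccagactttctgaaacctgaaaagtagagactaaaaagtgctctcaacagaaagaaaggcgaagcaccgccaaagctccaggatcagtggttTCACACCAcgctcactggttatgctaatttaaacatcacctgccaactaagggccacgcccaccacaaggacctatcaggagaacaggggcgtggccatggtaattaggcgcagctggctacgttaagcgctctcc
Mlxipl, outer start, chr5:135089640-135089889, plus strand: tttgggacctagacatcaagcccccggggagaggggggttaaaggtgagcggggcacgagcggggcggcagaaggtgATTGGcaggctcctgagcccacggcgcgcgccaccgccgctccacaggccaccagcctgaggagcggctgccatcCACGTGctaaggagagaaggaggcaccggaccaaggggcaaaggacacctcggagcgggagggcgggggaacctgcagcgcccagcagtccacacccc
In the inner window the sterol regulatory element core began 136 bases before the start. In the outer window the E-box began 98 bases before the start, and a CCAAT box on the minus strand began 173 bases before it. Of all 32817 RefSeq promoter windows of this length, 4.36% held the sterol regulatory element core and 7.15% held the E-box. These matches are a description of the letters in the window, and the counts do not show from which start Mlxipl was transcribed.

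Acly encodes ATP citrate lyase, which cleaves citrate to cytosolic acetyl-CoA (chromosome 11, 100476353 to 100528000, minus strand). The APAP livers held 101 and 131 CPM of Acly, and WT1, WT2 and WT3 held 165, 162 and 91.3 CPM. The groups overlapped, because WT3 was the lowest of the 5 libraries. Its log2 fold change of -0.27 (SE 0.32, 95% interval -1.02 to 0.49, adjusted p = 0.654) was not past the threshold, and its interval covers a decrease as well as a smaller increase.

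Me1 encodes cytosolic malic enzyme, one of the sources of NADPH for fatty acid synthesis (chromosome 9, 86581371 to 86695953, minus strand). The APAP livers held 72.7 and 50.3 CPM of Me1 and the saline livers 187, 144 and 160.4 CPM. The saline libraries lay within 1.30-fold of each other and all above the APAP libraries. Me1 fell to 37.5% of the saline mean, with a log2 fold change of -1.42 (SE 0.27, 95% interval -2.04 to -0.79, adjusted p = 0.0287). Of the 50-base words of its longest transcript, 32.8% also occur in other genes, the closest being Gm7049, so its count is less certain.

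Acaca encodes acetyl-CoA carboxylase 1, which makes malonyl-CoA and commits carbon to synthesis (chromosome 11, 84129672 to 84401651, plus strand). Acaca measured 28.5 and 32.1 CPM after APAP and 70.4, 75.2 and 60.9 CPM after saline. It had the smallest relative spread of the 10 genes, with libraries of a group within 1.13-fold (APAP) and 1.23-fold (saline). The log2 fold change was -1.18 (SE 0.21, 95% interval -1.68 to -0.69, adjusted p = 0.0238), and the APAP mean was 44.1% of the saline mean. With 52.6% of its 50-base words found in other genes, chiefly Gm5182, the Acaca count depends on how shared reads were assigned.

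Fasn encodes fatty acid synthase, the multifunctional enzyme that assembles palmitate (chromosome 11, 120805846 to 120824547, minus strand). Fasn was at 54.1 and 68.1 CPM in the APAP livers and at 238, 231 and 148 CPM in the saline livers. Every saline library exceeded both APAP libraries, and WT3 was the lowest of the 3. None of the 50-base words of Fasn occurs in another gene. It was lower with APAP by a log2 fold change of -1.75 (SE 0.30, 95% interval -2.46 to -1.04), and its adjusted p of 0.0221 was the smallest of the 10 genes. Fasn and Scd1 were the only members to pass in all 8 fits with another normalization, test or filter.

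Elovl6 encodes the elongase that extends palmitate to stearate (chromosome 3, 129532355 to 129638495, plus strand). It measured 33.2 and 17.4 CPM with APAP and 53.2, 55.4 and 42.0 CPM with saline. The groups did not overlap, but the APAP libraries differed 1.91-fold from each other. The log2 fold change of -0.99 (SE 0.32, 95% interval -1.74 to -0.24) had an unadjusted p of 0.0169 and an adjusted p of 0.112. DESeq2 was the only one of the 13 alternatives in which it passed (adjusted p = 0.0321).

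Scd1 encodes the delta-9 desaturase of liver, which makes oleate and palmitoleate (chromosome 19, 44394451 to 44407709, minus strand), and it showed the largest difference of the 10 genes. It was at 225 and 108 CPM in the APAP livers and at 5696, 3389 and 967 CPM in the saline livers. These are 3828 and 1746 reads against 63546, 51018 and 14476 reads. The groups were clearly apart, but the saline libraries themselves differed 5.89-fold, with WT3 the lowest. The APAP mean was 20.1-fold below the saline mean, and the log2 fold change was -4.33 (SE 0.86, 95% interval -6.37 to -2.30, adjusted p = 0.0338). Leaving out 1 library moved this value between -4.95 (without APAP replicate 1) and -3.70 (without WT1). Its neighbour Scd3, which shares 4.66% of the 50-base words of Scd1, had at most 15 reads in any library.

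Thrsp encodes Spot 14, a small protein that accompanies lipogenic enzymes and responds to thyroid hormone and carbohydrate (chromosome 7, 97412938 to 97417730, minus strand). Its level was 17.9 and 12.0 CPM with APAP and 45.8, 54.3 and 28.1 CPM with saline. As for Fasn, the groups did not overlap and WT3 was the lowest saline library. The log2 fold change was -1.51 (SE 0.35, 95% interval -2.34 to -0.69, adjusted p = 0.0482). Upper-quartile factors (adjusted p = 0.0583) and library size alone (0.114) put Thrsp above 0.05.

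Pnpla3 encodes a lipid droplet protein that is induced by SREBP1 on feeding (chromosome 15, 84167816 to 84189512, plus strand). It was the least abundant member, with 4.52 and 0.494 CPM in APAP livers and 1.34, 2.59 and 2.94 CPM in saline livers. The reads behind these values were 77 and 8 against 15, 39 and 44. The APAP libraries enclosed all 3 saline libraries and differed 9.15-fold from each other. A log2 fold change of 0.13 (SE 0.84, 95% interval -1.86 to 2.11, adjusted p = 0.945) gave no direction. It became -2.20 when APAP replicate 1 was left out and 0.96 when APAP replicate 3 was left out.

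**Figure D3:**
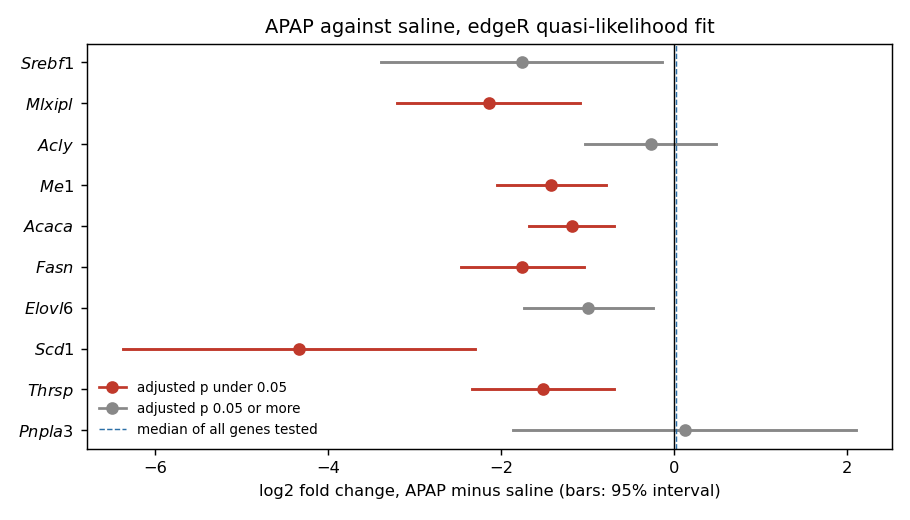
Fitted log2 fold change of APAP against saline for each gene (points) with its 95% interval (bars), in red where the adjusted p was under 0.05, beside the median of all genes tested (dashed line at 0.03). The intervals of Acly and Pnpla3 include 0, and that of Scd1 runs from -6.37 to -2.30.

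Fasn and Thrsp lie on different chromosomes and both fell with APAP, with WT3 the lowest saline library. Acaca and Scd1 shared this trait, so it is not particular to Fasn and Thrsp. The promoters of Fasn and Thrsp are printed because both held the CCAAT box on both strands within 90 bases of the start. This box (CCAAT, or ATTGG on the other strand) is the site of the factor NF-Y. Capitals mark the box.
Fasn, chr11:120824548-120824797, minus strand: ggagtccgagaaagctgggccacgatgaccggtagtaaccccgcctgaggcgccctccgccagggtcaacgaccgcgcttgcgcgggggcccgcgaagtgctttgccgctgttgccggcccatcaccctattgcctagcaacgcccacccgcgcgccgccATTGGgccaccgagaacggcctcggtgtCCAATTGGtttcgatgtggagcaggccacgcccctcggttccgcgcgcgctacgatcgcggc
Thrsp, chr7:97417551-97417800, minus strand: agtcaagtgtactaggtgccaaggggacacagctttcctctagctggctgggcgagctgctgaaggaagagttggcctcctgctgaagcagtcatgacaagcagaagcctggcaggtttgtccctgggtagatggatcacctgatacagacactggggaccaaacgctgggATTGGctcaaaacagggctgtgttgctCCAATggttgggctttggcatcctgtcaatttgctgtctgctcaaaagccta
In Fasn the boxes began 90, 62 and 59 bases before the start, and the latter pair overlap on opposite strands. In Thrsp they began 79 and 52 bases before the start. A CCAAT box was present in 8 of the 13 windows, which belong to 7 of the 9 genes, and in 37.4% of all RefSeq promoter windows. Acaca and Elovl6 had none, but the Acaca window (chr11:84195188-84195487) lies inside the gene, which starts at 84129672. The GC box GGGCGG, the site of SP1, was in 6 of the 13 windows, which belong to 5 of the 9 genes, and in 35.6% of all windows. The TATA box TATAAA was in none of the 13 windows and in 13.6% of all windows. No match in a window says only that these letters were not there.

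The levels were also summed over the pathway. The 10 genes summed to 623 and 502 CPM in APAP livers and to 6718, 4624 and 1761 CPM in saline livers. Scd1 made up 36.1% and 21.5% of this sum in APAP livers and 84.8%, 73.3% and 54.9% in saline livers. Without Scd1 the sums were 398 and 394 CPM in APAP livers and 1022, 1235 and 794 CPM in saline livers, so that the APAP libraries were nearly equal and below all saline libraries.

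Levels were compared between genes per kilobase of exon, counting all annotated exon bases of a gene. For Acaca these were 17074 bases, against 9513 in its longest protein-coding transcript, so the order of genes can depend on this choice. The annotation used for the lengths did not match the deposited coordinates of Scd1 and Pnpla3. In saline livers Scd1 led at 685 ± 483 CPM per kilobase (SD, n = 3). Mlxipl (45.2 ± 21.8) and Me1 (42.6 ± 5.62) followed, then Acly (26.4 ± 7.92), Thrsp (19.5 ± 6.12), Fasn (18.8 ± 4.54) and Srebf1 (16.6 ± 10.8 CPM per kilobase). Elovl6 (7.80 ± 1.11), Acaca (4.03 ± 0.43) and Pnpla3 (1.48 ± 0.54 CPM per kilobase) were last. The ranges of neighbours in this order overlapped from Mlxipl to Me1 and from Acly through Elovl6. In APAP livers Scd1 still had the highest mean, 34.0 ± 16.9 CPM per kilobase (SD, n = 2), but its range overlapped that of Acly (21.9 ± 4.05), which stood second. Me1, Mlxipl, Thrsp, Fasn, Srebf1, Elovl6, Acaca and Pnpla3 followed, at means of 15.97, 10.2, 6.83, 5.58, 4.91, 3.93, 1.78 and 1.62 CPM per kilobase. Here the ranges of neighbours overlapped from Thrsp through Elovl6 and between Acaca and Pnpla3.

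Genes around the pathway were read in lists, by the number called and the median log2 fold change. Over all genes tested, 7.23% were called in either direction and 23.5% passed the unadjusted threshold of the study, with a median of 0.03. Of 23 further regulators of lipogenic transcription, 0 passed in edgeR's quasi-likelihood test (1 higher and 3 lower at the unadjusted threshold), and their median was -0.26. The nearest to the threshold were Usf2, a factor that binds the E-box (log2 fold change -0.998, adjusted p = 0.0504), and Insig1, which holds SREBPs in the endoplasmic reticulum and is itself an SREBP target (-1.33, adjusted p = 0.0552). Insig1 measured 93.8 and 122 CPM after APAP and 302.5, 324 and 187 CPM after saline. The genes of both LXRs, which induce Srebf1, had adjusted p of 0.380 (Nr1h3) and 0.937 (Nr1h2).

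Among 23 genes that supply acetyl-CoA, citrate or NADPH, 1 rose and 1 fell, with a median of -0.15. At the unadjusted threshold, 3 were higher and 8 lower. Acss2, which makes acetyl-CoA from acetate and is an SREBP target, measured 21.5 and 22.6 CPM with APAP and 149, 107 and 48.7 CPM with saline. It fell by 2.20 on the log2 scale (SE 0.47, adjusted p = 0.0404). Pgd, the second NADPH-forming enzyme of the pentose phosphate pathway, went the other way, from 35.8, 28.8 and 24.6 CPM in saline livers to 127 and 136 CPM in APAP livers (log2 fold change 2.15, SE 0.23, adjusted p = 0.00521). G6pdx, the first NADPH-forming enzyme of that pathway, had a log2 fold change of 1.11 and an adjusted p of 0.0546. The NADPH source Me1 and the NADPH source Pgd thus differed in opposite directions between the same libraries. Liver pyruvate kinase (Pklr) and the citrate carrier Slc25a1 had log2 fold changes of -1.08 and -0.94, with adjusted p of 0.126 and 0.189. The carrier gene Mpc2 and the dehydrogenase genes Mdh1 and Idh1 had log2 fold changes of -0.99, -1.06 and -1.32, with adjusted p of 0.0557, 0.0670 and 0.0868.

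Downstream of palmitate, 1 of 26 other genes of acyl chain building rose, 1 fell, and the median was -0.32. At the unadjusted threshold, 5 were higher and 6 lower. The bile acid and fatty acyl-CoA ligase gene Slc27a5 fell by 1.54 on the log2 scale (adjusted p = 0.0421). Elovl7 rose (log2 fold change 3.64, adjusted p = 0.0275) from at most 1.13 CPM in saline livers to 18.9 and 4.27 CPM in APAP livers. Scd2, the desaturase gene of the same family that is typical of other tissues, measured 16.5 and 7.23 CPM with APAP and 7.35, 7.97 and 3.67 CPM with saline (log2 fold change 0.91, adjusted p = 0.284). Of 17 genes of triglyceride and phospholipid assembly, 2 rose and 1 fell (2 higher and 6 lower at the unadjusted threshold), with a median of -0.43. Pcyt1a rose by 1.04 (adjusted p = 0.0452) and Lpin3 by 1.51 (adjusted p = 0.0485) on the log2 scale. Gpat4, which starts glycerolipid assembly, fell from 165, 161 and 186 CPM in saline livers to 76.9 and 93.9 CPM in APAP livers (adjusted p = 0.0458). Dgat2, which makes triglyceride from new fatty acids, had a log2 fold change of -0.89 and an adjusted p of 0.0974.

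Lists of neighbouring programs had medians between those of the 10 genes and 0, apart from fasting genes. At the unadjusted threshold, 0 cholesterol synthesis genes were higher and 5 lower. For LXR targets these counts were 1 and 3, and for fasting genes 2 and 0. Of 20 genes of cholesterol synthesis under SREBP2, Idi1 and Pmvk fell, with log2 fold changes of -1.08 and -1.58 (adjusted p of 0.0352 and 0.0452), and the median was -0.47. Of 10 LXR targets outside fatty acid synthesis, the cholesterol exporter Abcg1 rose by 1.62 (adjusted p = 0.0198) and the median was -0.24. Cyp7a1, the rate-limiting enzyme of bile acid synthesis, fell with a log2 fold change of -6.48 (adjusted p = 0.00184), from between 72.7 and 163 CPM to 1.18 and 1.42 CPM. Of 23 genes of fasting and fatty acid oxidation, Plin2, which coats lipid droplets, rose by 2.49 (adjusted p = 0.0352) and Ehhadh, a peroxisomal oxidation enzyme, by 1.68 (adjusted p = 0.0443), with a median of 0.37. Of 13 genes that respond to insulin or FOXO1, 1 fell (2 higher and 6 lower at the unadjusted threshold), with a median of -0.93. It was Ppp1r3b, which directs glycogen synthesis (log2 fold change -2.48, adjusted p = 0.00981). Of 12 genes of AMPK and of the control of ACC, 0 passed in the same test (1 higher and 4 lower at the unadjusted threshold), with a median of -0.17.

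**Figure D4:**
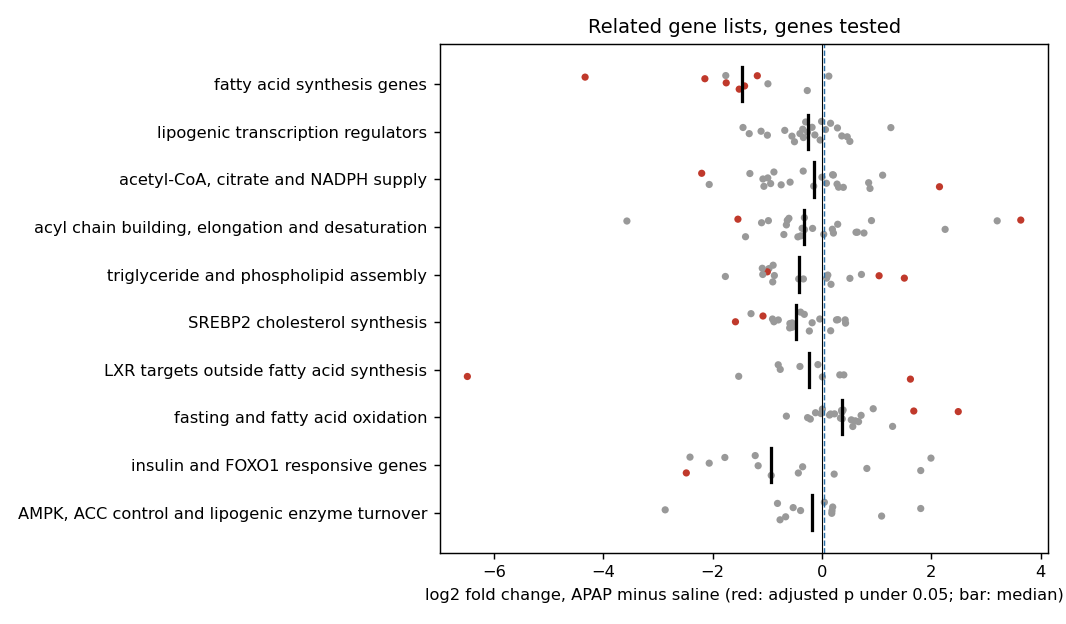
Log2 fold change of every gene tested (points, red where the adjusted p was under 0.05) in the 10 fatty acid synthesis genes and in 9 related lists, with the median of each list as a black bar and that of all genes as a dashed line. The median of the fatty acid synthesis genes, -1.46, lies to the left of the medians of the other lists shown, which run from -0.93 to 0.37. Centrilobular hepatocyte markers (median -4.12) and female-biased liver genes (median -7.25) are not shown and had lower medians.

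The saline libraries were not alike for these genes. WT3 was the lowest saline library in 7 of the 10 genes, WT1 in 2 and WT2 in 1. WT3 also held 199.6 CPM of Pdk4, a fasting-induced kinase that restrains pyruvate dehydrogenase, against 38.4 and 25.0 CPM in WT1 and WT2 and 68.9 and 126.7 CPM in the APAP livers. Cyp4a14, a PPARα target, was at 4260.1 CPM in WT3, 1083 and 672 CPM in WT1 and WT2, and 2321 and 2379.7 CPM in the APAP livers. WT3 thus had the highest level of both genes and the lowest of Srebf1 among the 5 libraries. Igfbp1, which insulin represses, did not follow the same order, with 424, 59.7 and 638 CPM in WT1, WT2 and WT3 and 199.1 and 1121 CPM in APAP livers. Pdk4 and Cyp4a14 were picked from 23 genes of fasting and fatty acid oxidation, and not all of these were high in WT3. Acaa1b was at 523, 304 and 218 CPM in WT1, WT2 and WT3 and 504 and 396 CPM in APAP livers. Bdh1 was at 186, 135 and 64.4 CPM in WT1, WT2 and WT3 and 132 and 359 CPM in APAP livers. The part of nutritional state in the spread of the saline libraries was not tested.

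**Figure D5:**
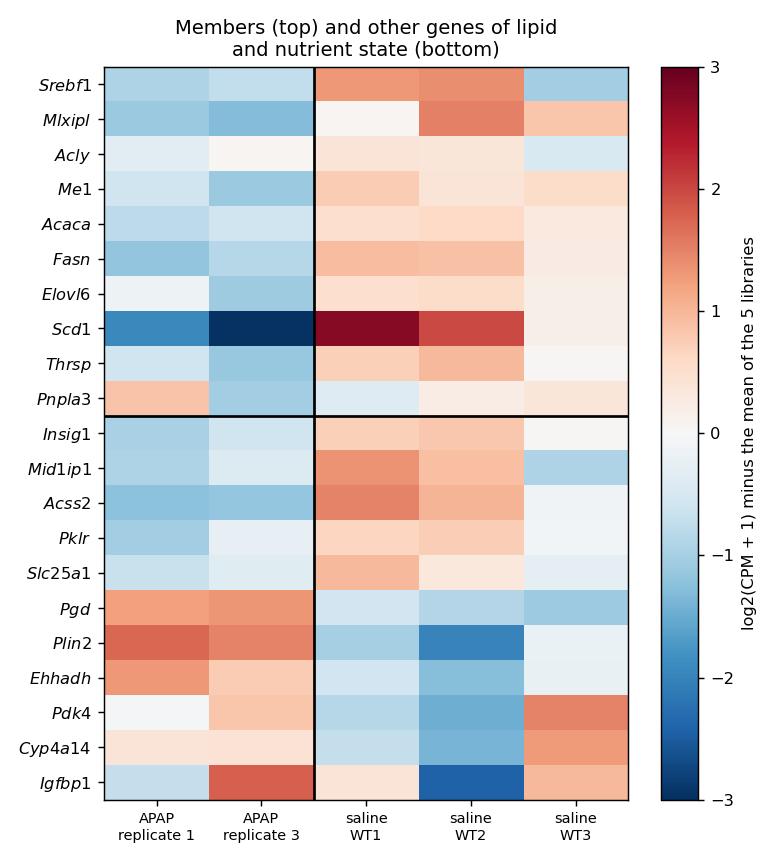
Level of the 10 genes (above the line) and of other genes of lipid and nutrient metabolism (below) in each library, as log2(CPM + 1) minus the mean of the 5 libraries, red above and blue below the mean. Srebf1 and Mid1ip1 are blue in WT3 as in the APAP libraries, and Pdk4 and Cyp4a14 are reddest in WT3.

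Genes whose levels moved most like 2 of the members were sought among the 7893 genes tested with a mean of at least 10 CPM, by the root mean square difference of log2(CPM + 1) values centred on their mean over the 5 libraries. The closest to Fasn were Pm20d1, Gstm7 and Slc29a1, at 0.0744, 0.0971 and 0.110 log2 units. Pm20d1 measured 32.4 and 35.97 CPM with APAP and 141, 129 and 90.4 CPM with saline. The nearest members to Fasn were Acaca and Thrsp, at 0.318 and 0.326 log2 units, and the farthest of those compared was Scd1 at 1.38. The closest to Srebf1 were Aqp8, Mid1ip1 and Rprd1b, at 0.264, 0.273 and 0.394 log2 units. Mid1ip1 encodes a partner of Spot 14 that promotes polymerization of acetyl-CoA carboxylase, and measured 7.58 and 11.2 CPM with APAP and 40.2, 29.3 and 7.48 CPM in WT1, WT2 and WT3. Its pattern shared with Srebf1 the low level in WT3.

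Several of the 10 genes are also active in fat tissue, so adipocyte markers were read. Adipoq, Plin1 and Retn did not exceed 0.534 CPM in any library, and Lep had 0 counts in all 5. The 10 adipocyte markers summed to 337 and 113 CPM in APAP livers and to 19.7, 52.7 and 157 CPM in saline livers, with Cidec and Fabp4, which other cells of injured liver can also express, higher at an adjusted p under 0.05. Among clock genes, which are known to time Srebf1 and its targets, Dbp and Per3 rose (log2 fold change 3.45 and 2.22) and Cry1 fell by 1.52, so 3 of 16 passed (adjusted p of 0.00360, 0.0345 and 0.0164). At the unadjusted threshold of the study, 6 clock genes were higher and 4 lower. Over all genes tested, 7.23% passed at the adjusted and 23.5% at the unadjusted threshold in either direction. The hour of collection is not given in the labels, and its part in the results was not tested.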

How the data were processed

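Bulk RNA-Seq of mouse liver was analysed in 2 APAP and 3 saline libraries. The authors name HISAT2, an aligner, as the source of the read counts of each gene, which they deposited without normalization. The annotation and strand setting are not given in the sources used here. Coordinates are those of the deposited table, in GRCm38 as named in the submitters' processing notes. The 5 columns of FPKM were not used. Counts were filtered by filterByExpr (minimum count 10, minimum total 15), normalized by TMM and tested by the quasi-likelihood test of edgeR 4.0.16 (R 4.3.3, two-sided) with Benjamini-Hochberg adjustment over the 13734 genes tested. CPM used TMM-scaled library sizes. DESeq2 1.42.0 was an alternative. The floor of 3 counts covers counting error only. Exon lengths and 50-base words shared between genes came from GENCODE M21, and promoters from RefSeq, in Python 3.11.15.

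The members and the lists were chosen with earlier results of these data known, so the counts per list are descriptions. Genes were named under a rule that covered all 10 members, the sex-linked genes and the 3 genes nearest to Fasn and to Srebf1. From each list it allowed up to 4 higher and 4 lower genes, those with the smallest adjusted p. Not all genes that it allowed are named, so those named from a list are a selection. Outside the rule, Pklr, Slc25a1, Dgat2, Scd2, Nr1h2, Nr1h3, Pdk4, Cyp4a14, Igfbp1 and the near-absent adipocyte markers were named after their values were seen. A symbol on more than 1 line was read from the line with the larger total count.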

Additional observations from a re-analysis of the deposited data

How the results depend on the processing

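The 8 members other than Acly and Pnpla3 stayed lower with APAP in all 104 alternative values. The members called were 6 as reported and under size factors, the likelihood ratio and exact tests and both other filters, 5 with upper-quartile factors and 8 with DESeq2, which added Srebf1 and Elovl6. Scaling to library size only left 2, Fasn and Scd1. It moved the median log2 fold change of all genes from 0.03 to 0.42 and the share of higher calls from 51.2% to 77.8%, and it turned Acly to 0.12, which is still below that median. With 1 library left out, between 0 and 6 members were called, and between 165 and 922 genes. The 993 genes called became 2093 with DESeq2, 1835 with the likelihood ratio test, 1776 with the exact test and 3228 with the threshold of the study. Pnpla3 reversed with libraries left out (between -2.20 and 0.96, and -0.12 without WT1), and was not tested with at least 10 counts in every library. The cause of these shifts was not tested. No paired analysis was possible because the numbers of the saline columns could not be tied to labelled samples, nor to an animal or batch shared with an APAP library. With 2 APAP libraries, a fit without 1 of them assumes that the lone sample varies like the saline group.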
